A study of Mus musculus with 11 samples.

Results

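The genes described are 33 genes of the Fanconi anemia pathway, of homologous recombination and of the checkpoint kinases that signal to them. They were chosen as a list of gene symbols, and all 33 were found, among 24064 genes in the libraries sorted by forward scatter and among 23420 in the unfractionated libraries. The RNA came from haematopoietic stem cells (HSCs) in the liver of newborn mice (P0), wild-type in genotype and of strain C57BL/6. Cells were sorted as lineage-negative, Sca1+, cKit+, CD150+ and CD48-, and 100 to 200 of them went into each Smart-seq2 library, in which whole transcripts are copied into cDNA and amplified. FSC-A High names 4 libraries of cells gated for high forward scatter, FSC-A Low 3 libraries gated for low forward scatter, and 4 unfractionated libraries carry no scatter gate in their labels. All 11 libraries share strain, genotype, tissue, age and sort markers, so the scatter gate is the labelled difference between FSC-A High and FSC-A Low, and forward scatter area is commonly read as cell size. Whether each library had its own animals is not stated in the labels, so the p-values below reflect only how far these libraries spread, which may be technical.

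The Fanconi anemia proteins repair crosslinks between the strands of DNA. A nuclear core complex, whose ligase subunit is FANCL, works with the ubiquitin-conjugating enzyme UBE2T to put a ubiquitin on the paired proteins FANCD2 and FANCI, the ID complex. The modified ID complex brings in nucleases that cut the crosslink loose, and the resulting break is mended by homologous recombination, in which BRCA2, PALB2 and BRCA1 act together on single-stranded DNA. ATM and ATR are kinases that sense breaks and stalled replication forks, and CHEK2 and CHEK1 are kinases that they activate. Loss of the pathway is known for depleting blood stem cells, in people with Fanconi anemia as bone marrow failure.

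Of the 33 genes, 8 differed between FSC-A High and FSC-A Low HSCs. Ube2t, Chek2, Rad51ap1, Brip1, Fancl and Exo1 were higher in FSC-A High, and Fancf and Nbn were lower. The levels are of pooled cells, in which fewer expressing cells and less RNA per cell cannot be told apart. A gene was tested when it reached 1 RPKM (reads scaled to transcript length in kilobases and to library size) in at least 3 of the 7 gated libraries, and it was called at an adjusted p below 0.05 in limma on log2(RPKM + 1). In all, 27 of the genes were tested, 6 were called higher and 2 lower, and 19 did not pass. The remaining 6 (Atm, Atr, Bard1, Fancm, Rad51c and Slx4) fell under the filter. A gene present only in FSC-A Low had to reach 1 RPKM in all 3 of its libraries, one present only in FSC-A High in 3 of 4. The share called higher was 22.2%, against 15.6% of all 10619 tested genes, and the share called lower was 7.41%, against 11.7%. Both shares lie near the background and are no result about the list. The median log2 difference of the 27 tested genes was 0.49, against -0.04 over all tested genes. Of the 27 differences 21 were positive, against 5054 of the 10619 over all tested genes. All FSC-A High libraries lay above all FSC-A Low libraries for 9 of the 27 genes, against 18.9% of all tested genes, and below them for 1, against 16.0%. With each library scaled to its total of gene values, 4 of the genes were called higher and 3 lower, their median was 0.24 and that of all genes was -0.31, and the calls over all genes changed to 980 higher and 2285 lower, against 1657 higher and 1245 lower as deposited.

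**Figure D1:**
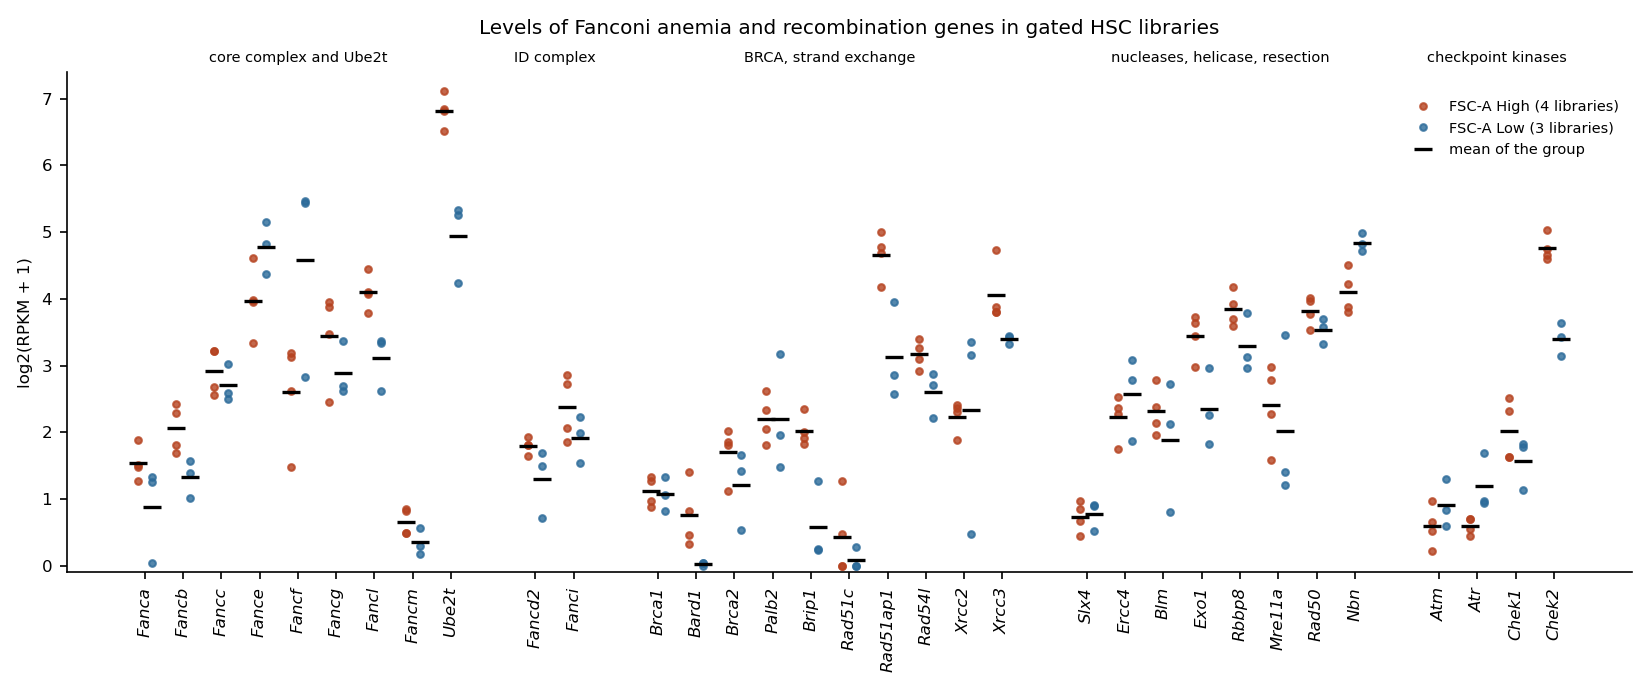
Level of each of the 33 genes in each gated library, as log2(RPKM + 1) on the vertical axis, with genes grouped by role; points are libraries, FSC-A High left of FSC-A Low, and bars are the means of the points. Ube2t has the highest group mean in both groups, although Fancf lies above it in 2 of the 3 FSC-A Low libraries, and the checkpoint kinase genes Atm and Atr, with Bard1, Rad51c, Fancm and Slx4, lie near the bottom.

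The cells of the gates differed in cell cycle genes and in sort markers. All 20 tested markers of G2 and mitosis were higher in FSC-A High, where their summed level was 2440 to 2690 RPKM, against 130 to 242 RPKM in FSC-A Low. Of 20 S phase markers 11 were higher (55%, against 15.6% of all tested genes) and none lower (against 11.7%). Their sums were 1380 to 1540 RPKM in FSC-A High and 873 to 961 RPKM in FSC-A Low. These levels moved with the changes described here, and their part in them was not tested. The markers for which the sort was positive were present. Kit averaged 20.9 ± 3.37 RPKM in FSC-A High (SD, n = 4) and 54.7 ± 6.22 RPKM in FSC-A Low (SD, n = 3). Ly6a (Sca1) and Slamf1 (CD150) averaged 27.4 ± 12.6 and 6.24 ± 2.58 RPKM in FSC-A High, against 12.9 ± 1.59 and 8.83 ± 2.48 RPKM in FSC-A Low. Cd48, which the sort excluded, was low, at 1.38 ± 1.38 RPKM in FSC-A High and 1.26 ± 0.427 RPKM in FSC-A Low. Of the 8 sort and HSC markers, 4 were lower in FSC-A High (50%, against 11.7% of all tested genes) and none higher (against 15.6%). Among markers of other cells, all 4 lymphoid and all 4 stromal genes, and both mast cell genes, stayed under 1 RPKM in every gated library. The 6 erythroid markers summed to 111 to 239 RPKM in FSC-A High and 68.2 to 101 RPKM in FSC-A Low, with Car1 under 1 RPKM throughout. The 6 granulocyte and monocyte markers summed to 181 to 271 RPKM in FSC-A High and 166 to 174 RPKM in FSC-A Low, with Ctsg, Csf1r and Ly6c2 under 1 RPKM throughout. The megakaryocyte, hepatocyte and endothelial markers, 4 of each, summed to 21.4 to 26.9, 11.3 to 15.7 and 2.46 to 7.93 RPKM in FSC-A High, against 16.8 to 25.8, 7.25 to 16.3 and 9.72 to 16.7 RPKM in FSC-A Low. Hbb-bt and Lyz2 were higher in FSC-A High, and Gp1ba and Pecam1 lower. The part of these cells in the changes was not tested. The gated libraries held an estimated 65.7 to 98.2 M reads and the unfractionated ones 21307178 to 30889443.

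In the core complex, the ligase gene Fancl and its partner enzyme gene Ube2t rose. Ube2t (chromosome 1, 134962565 to 134974180 on GRCm38, the assembly that mm10 denotes) stood at 111, 114, 138 and 90.5 RPKM in the 4 FSC-A High libraries and at 37.3, 39.2 and 17.95 RPKM in the 3 FSC-A Low libraries. Every FSC-A High library was above every FSC-A Low library, and the log2 difference was 1.88 (SE 0.25, limma adjusted p = 1.94e-04). Fancl (chromosome 11, 26387084 to 26471883), the ligase subunit that receives ubiquitin from UBE2T, stood at 16.2, 12.8, 20.7 and 15.8 RPKM in FSC-A High and at 5.16, 9.13 and 9.36 RPKM in FSC-A Low. The groups did not overlap, and the log2 difference was 0.99 (SE 0.28, limma adjusted p = 0.0184). Its call was lost without FSC-A High replicate 3 (adjusted p = 0.0644), without FSC-A Low replicate 1 (0.0768), when scaled by library totals (0.0709), and with the replicate number as a block and the length and GC trend removed (0.0513). Exons of Fancl overlap 462 bases of Vrk2 on the opposite strand, whose means were 16.6 RPKM in FSC-A High and 11.3 RPKM in FSC-A Low. Smart-seq2 does not mark strand, so reads in the shared bases cannot be told apart. Fanca, Fanci, Rad54l, Mre11a and Xrcc3 share 920, 921, 1184, 154 and 12 exonic bases with Zfp276, Polg, Lrrc41, Ankrd49 and Klc1 in the same way.

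Fancf, an adaptor subunit of the core complex that lies in a single exon (chromosome 7, 51860577 to 51862267), went the other way. It stood at 5.16, 1.79, 7.76 and 8.10 RPKM in FSC-A High and at 42.4, 6.11 and 43.1 RPKM in FSC-A Low; the log2 difference was -1.97 (limma SE 0.59, adjusted p = 0.0255). The groups overlapped, since FSC-A Low replicate 2 lay below 2 of the FSC-A High libraries. Its adjusted p was 0.0678 without FSC-A High replicate 2, 0.109 without FSC-A Low replicate 1, 0.113 without FSC-A Low replicate 3 and 0.154 without a filter on low values. Fancf shares 253 exonic bases with Gas2 on the opposite strand, and Gas2 was lower too, at a mean of 1.74 RPKM in FSC-A High and 10.6 RPKM in FSC-A Low (log2 difference -2.04, limma adjusted p = 0.00777). How far those shared bases set the Fancf values was not tested.

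The other core complex subunits did not pass. Fance, the subunit that contacts FANCD2, had values of 14.5, 23.5, 9.13 and 14.8 RPKM in FSC-A High and 27.2, 19.8 and 34.7 RPKM in FSC-A Low, with a log2 difference of -0.81 (95% interval -1.46 to -0.17, limma adjusted p = 0.0608). It passed as lower in 4 of 23 alternative settings, among them without FSC-A High replicate 2 (adjusted p = 0.0250) and without FSC-A Low replicate 2 (0.0420). Fancb, a subunit of the module that holds the ligase, had 4.39, 2.53, 2.24 and 3.91 RPKM in FSC-A High and 1.02, 1.98 and 1.61 RPKM in FSC-A Low, without overlap but with an adjusted p of 0.120 by limma (0.0470 with the trend over expression level removed). Fancg and Fanca, which bind each other in the core complex, had log2 differences of 0.55 (95% interval -0.26 to 1.37) and 0.66 (-0.16 to 1.48), and Fancc, a partner of FANCE, had 0.21 (-0.45 to 0.88). Fanca was nearly undetected in FSC-A Low replicate 2, at 0.0269 RPKM, against 1.52 and 1.38 RPKM in the other FSC-A Low libraries. Fancm, the DNA translocase that anchors the complex on chromatin, was low, at 0.403 to 0.799 RPKM in FSC-A High and 0.136 to 0.486 RPKM in FSC-A Low, and was not tested.

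The ID complex, the substrate of that ubiquitin transfer, gave no call. Fancd2 stood at 2.13, 2.81, 2.51 and 2.53 RPKM in FSC-A High and at 1.81, 2.22 and 0.636 RPKM in FSC-A Low; the log2 difference was 0.50 (95% interval -0.22 to 1.23, limma adjusted p = 0.292). Its partner Fanci stood at 6.25, 5.61, 2.61 and 3.18 RPKM in FSC-A High and at 2.99, 1.91 and 3.68 RPKM in FSC-A Low; the log2 difference was 0.45 (95% interval -0.31 to 1.22, adjusted p = 0.374). The groups overlapped for both genes, and the intervals leave room for rises of more than 2-fold as well as for none. Beside a Ube2t mean of 113 RPKM in FSC-A High and 31.5 RPKM in FSC-A Low, both substrate genes were low, with means of at most 4.41 RPKM in either group.

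**Figure D2:**
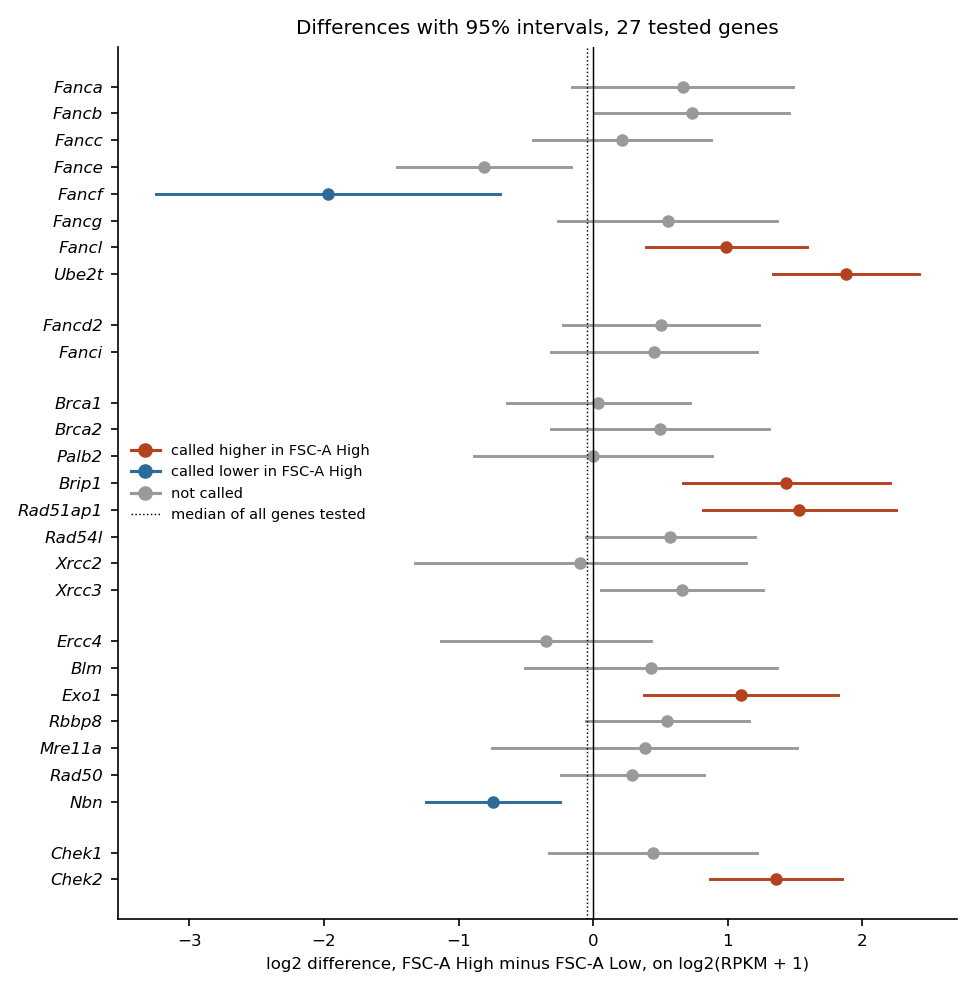
Log2 difference of each of the 27 tested genes, FSC-A High minus FSC-A Low, on the log2(RPKM + 1) scale on the horizontal axis, with 95% intervals from limma as bars and genes grouped by role from the core complex at the top to the checkpoint kinases at the bottom. Ube2t, Chek2, Rad51ap1 and Brip1 lie farthest to the right, Fancf farthest to the left, and the grey genes did not pass.

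Among the BRCA and strand exchange factors, Rad51ap1 and Brip1 rose while the BRCA genes themselves gave no call. Rad51ap1 (chromosome 6, 126923415 to 126939621), which encodes a DNA-binding protein that stimulates strand invasion, stood at 24.8, 17.1, 26.5 and 31.2 RPKM in FSC-A High and at 14.6, 4.97 and 6.25 RPKM in FSC-A Low. The groups did not overlap, and the log2 difference was 1.53 (SE 0.33, limma adjusted p = 0.00448). Brip1 (chromosome 11, 86058136 to 86201215), a helicase that binds BRCA1 and is also known as FANCJ, stood at 2.77, 2.53, 4.07 and 3.00 RPKM in FSC-A High and at 1.42, 0.187 and 0.173 RPKM in FSC-A Low. All FSC-A High libraries were above all FSC-A Low libraries, with a log2 difference of 1.44 (limma SE 0.36, adjusted p = 0.00971). With a pseudocount of 5 in place of 1 the difference was 0.54. Brip1 reached 1 RPKM in only 1 FSC-A Low library, so it passed the filter through FSC-A High. Fitted without a filter, it was still called higher (limma adjusted p = 0.0327).

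Brca1 had 1.42, 1.51, 0.968 and 0.835 RPKM in FSC-A High and 1.52, 0.771 and 1.09 RPKM in FSC-A Low. The ranges overlapped almost fully, with a log2 difference of 0.04 (95% interval -0.64 to 0.72, limma adjusted p = 0.940). Bard1, the obligate partner of BRCA1 in its ubiquitin ligase, was below 1 RPKM in 6 of the 7 gated libraries and was not tested. It stood at 1.66, 0.769, 0.375 and 0.254 RPKM in FSC-A High, was listed at 0 in FSC-A Low replicate 2, and stood at 0.0306 and 0.0291 RPKM in the other FSC-A Low libraries. Every FSC-A High value was above every FSC-A Low value. Without a filter, where it could be fitted, Bard1 had a log2 difference of 0.73 (limma SE 0.26, adjusted p = 0.121).

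Brca2, whose protein acts at the strand exchange step, had 2.51, 2.62, 3.05 and 1.18 RPKM in FSC-A High and 2.16, 0.448 and 1.69 RPKM in FSC-A Low (log2 difference 0.49, 95% interval -0.32 to 1.31). Palb2, which bridges BRCA1 and BRCA2, had 2.51 to 5.12 RPKM in FSC-A High and 1.80 to 8.03 RPKM in FSC-A Low, with a difference of -0.00 (95% interval -0.89 to 0.88). Rad54l, a translocase that works on recombination intermediates, did not overlap between groups, at 6.59 to 9.59 RPKM in FSC-A High and 3.66 to 6.34 RPKM in FSC-A Low, but did not pass (limma adjusted p = 0.164). Of the strand exchange genes Xrcc3 and Xrcc2, Xrcc3 had 13.8, 12.9, 13.0 and 25.7 RPKM in FSC-A High and 9.81, 8.97 and 9.88 RPKM in FSC-A Low, without overlap (log2 difference 0.66, limma adjusted p = 0.0977). Xrcc2 spread widely in FSC-A Low, at 9.26, 7.96 and 0.394 RPKM, around the 2.69 to 4.29 RPKM of FSC-A High. Without FSC-A Low replicate 3 its log2 difference of -0.10 became -1.03 (adjusted p = 0.0438). Rad51c was listed at 0 in FSC-A High replicates 1 and 4 and in FSC-A Low replicates 1 and 3, and reached at most 1.42 RPKM elsewhere, so it was not tested.

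**Figure D3:**
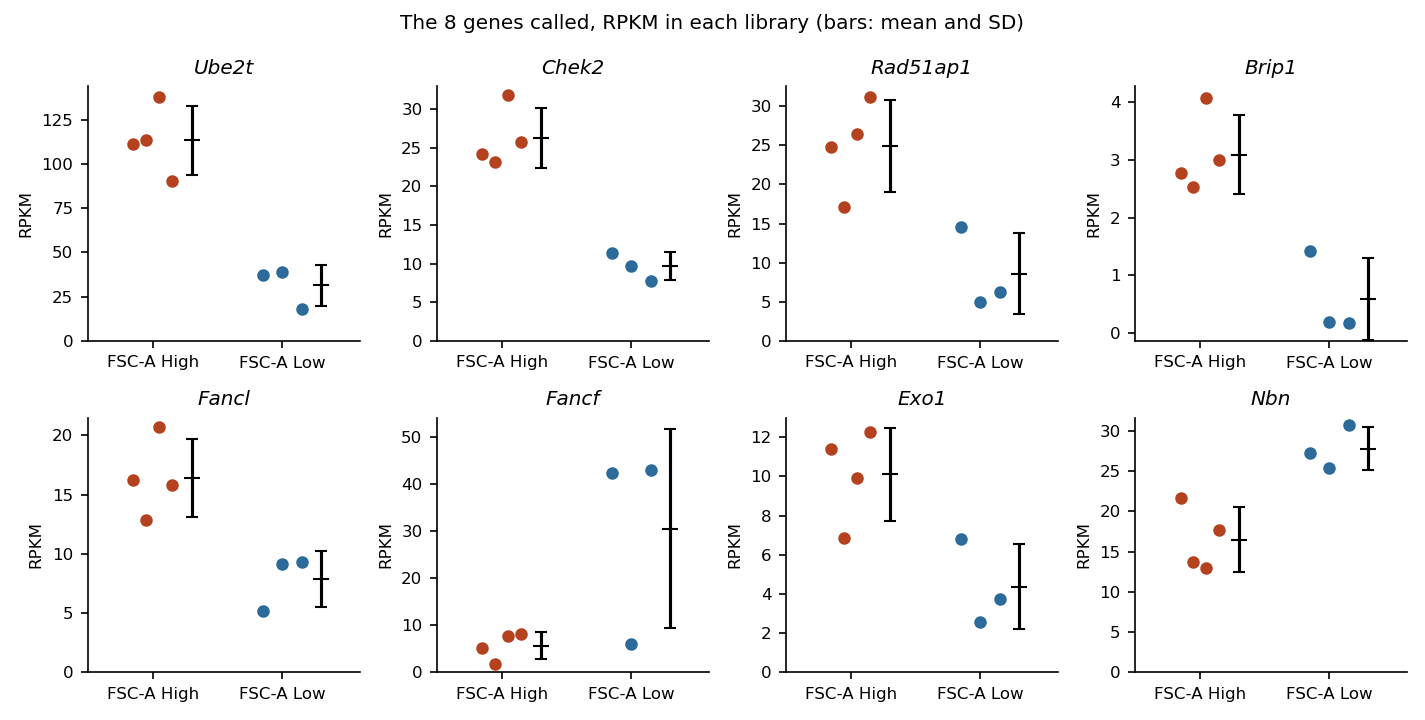
RPKM of the 8 called genes on the vertical axis of each panel, with FSC-A High left of FSC-A Low, libraries as points, and mean and SD as bars. The groups are apart for Ube2t, Chek2, Rad51ap1, Brip1, Fancl, Exo1 and Nbn, while 1 FSC-A Low library of Fancf lies among the FSC-A High libraries, at 6.11 RPKM.

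Of the nucleases, helicase and end resection genes, Exo1 rose and Nbn fell. Exo1 (chromosome 1, 175880768 to 175911396), an exonuclease that lengthens the single-stranded tail at a break, stood at 11.4, 6.85, 9.91 and 12.3 RPKM in FSC-A High and at 6.79, 2.56 and 3.77 RPKM in FSC-A Low. The groups were apart by a narrow margin, and the log2 difference was 1.097 (SE 0.33, limma adjusted p = 0.0274). The call was lost in 8 of 23 alternative settings. They include leaving out FSC-A High replicate 1 (adjusted p = 0.0603), 3 (0.0624) or 4 (0.0695), leaving out FSC-A Low replicate 2 (0.101) or 3 (0.0683), and applying no filter (0.0781).

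Nbn (chromosome 4, 15957587 to 15992589), Mre11a and Rad50 encode the MRN complex, which holds broken ends and starts their resection. Nbn stood at 21.7, 13.7, 13.0 and 17.7 RPKM in FSC-A High and at 27.2, 25.4 and 30.8 RPKM in FSC-A Low. It was the only tested gene of the list with all FSC-A High libraries below all FSC-A Low libraries, with a log2 difference of -0.74 (limma SE 0.23, adjusted p = 0.0296). The call was lost in 7 of 23 settings, among them without FSC-A High replicate 2 (adjusted p = 0.0807) or 3 (0.0868) and without FSC-A Low replicate 1 (0.0677) or 3 (0.0928). Rad50, the long coiled-coil ATPase of the complex, gave no call, at 15.2, 10.5, 12.7 and 14.7 RPKM in FSC-A High and 12.0, 9.01 and 10.9 RPKM in FSC-A Low (log2 difference 0.29, 95% interval -0.24 to 0.82). The Nbn level divided by the Rad50 level, a ratio looked at after the values were seen, was 1.43, 1.3, 1.02 and 1.2 in FSC-A High and 2.27, 2.82 and 2.82 in FSC-A Low. Mre11a, the nuclease subunit, spread from 2.01 to 6.90 RPKM in FSC-A High and from 1.33 to 9.98 RPKM in FSC-A Low, and gave no call (log2 difference 0.38, 95% interval -0.75 to 1.51).

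Rbbp8, which encodes CtIP, the activator of MRN resection, had 14.2, 17.0, 11.9 and 11.1 RPKM in FSC-A High and 12.8, 6.83 and 7.77 RPKM in FSC-A Low (log2 difference 0.55, 95% interval -0.06 to 1.15). Blm, the helicase that dissolves joined DNA molecules, spanned 2.89 to 5.93 RPKM in FSC-A High and 0.749 to 5.60 RPKM in FSC-A Low. Ercc4, the XPF nuclease, spanned 2.38 to 4.78 RPKM in FSC-A High and 2.66 to 7.47 RPKM in FSC-A Low, and Slx4, the scaffold that positions it, stayed under 1 RPKM in all 7 libraries. None of Rbbp8, Blm and Ercc4 passed, and their groups overlapped.

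Of the checkpoint kinases, Chek2 rose. Chek2 (chromosome 5, 110839800 to 110874140) was the second most abundant gene of the list in FSC-A High, at 24.2, 23.2, 31.8 and 25.8 RPKM, against 11.4, 9.74 and 7.82 RPKM in FSC-A Low. Each FSC-A High value was above each FSC-A Low value, with a log2 difference of 1.36 (limma SE 0.23, adjusted p = 8.97e-04). Chek1 had 2.10, 2.09, 3.98 and 4.73 RPKM in FSC-A High and 2.54, 2.43 and 1.19 RPKM in FSC-A Low, with overlap and a log2 difference of 0.45 (95% interval -0.33 to 1.22). The upstream kinase genes were low. Atm had 0.172 to 0.960 RPKM in FSC-A High and 0.507 to 1.47 RPKM in FSC-A Low. Atr had 0.368 to 0.624 RPKM in FSC-A High and 0.926 to 2.23 RPKM in FSC-A Low, without overlap. Both were under the filter; fitted without it, Atr had a log2 difference of -0.60 (limma SE 0.21, adjusted p = 0.120). Atr shares 726 exonic bases with 1700065D16Rik on the opposite strand, whose means were 1.33 RPKM in FSC-A High and 3.50 RPKM in FSC-A Low, and the part of those bases in the Atr values was not tested.

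The libraries also differed within a gate. The median level of the 33 genes in a library was 4.91, 3.39, 4.07 and 4.73 RPKM in FSC-A High and 4.64, 2.56 and 3.37 RPKM in FSC-A Low, and the groups overlapped. Within the group of 3, FSC-A Low replicate 1 had the highest value for 18 of the genes and FSC-A Low replicate 2 the lowest for 18. Fancf, Mre11a, Xrcc2 and Palb2 spread widely between FSC-A Low libraries, and the last 3 of these changed sign when a single library was left out.

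The calls of Ube2t, Chek2, Rad51ap1 and Brip1 held in every alternative setting in which each was tested, at adjusted p values of at most 0.0105, 0.00964, 0.0403 and 0.0392. Over the whole table, differences were lower for longer transcripts, with a Spearman's rho of -0.42 between length and log2 difference in 10460 genes; genes are not independent replicates. The tested genes of the list were long, with a median of 3286 nt against 2544 nt for all tested genes. After a spline over length and GC was subtracted in every library, 6 genes of the list were called higher and 2 lower, and their median log2 difference was 0.73, against 0.01 for all genes.

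Promoters of the 4 called genes with the smallest p are printed here, since they are the genes whose calls held in every alternative setting that tested them. They are the 250 bases upstream of the start in the RefSeq promoter entry on GRCm38.p6, 5′ to 3′ on the strand of the gene. For Ube2t that start is the start of the gene as given above. For Chek2, Rad51ap1 and Brip1 it lies within the gene coordinates given above, so part of each window is inside the gene. Capitals mark CCAAT, the NF-Y box, and TTTNNCGC, the letters of an E2F site, on either strand. Chek2 and Brip1 hold a TTTNNCGC match; Ube2t and Rad51ap1 hold none and were added after their values were seen. The windows are chr1:134962315-134962564 on the plus strand for Ube2t, chr5:110839733-110839982 on the plus strand for Chek2, chr6:126939588-126939837 on the minus strand for Rad51ap1 and chr11:86201194-86201443 on the minus strand for Brip1.
Ube2t: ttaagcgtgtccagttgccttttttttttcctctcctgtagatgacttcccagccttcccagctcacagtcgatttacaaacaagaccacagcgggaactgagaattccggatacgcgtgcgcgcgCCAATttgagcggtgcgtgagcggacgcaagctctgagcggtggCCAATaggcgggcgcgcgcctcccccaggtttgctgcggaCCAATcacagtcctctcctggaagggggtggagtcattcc
Chek2: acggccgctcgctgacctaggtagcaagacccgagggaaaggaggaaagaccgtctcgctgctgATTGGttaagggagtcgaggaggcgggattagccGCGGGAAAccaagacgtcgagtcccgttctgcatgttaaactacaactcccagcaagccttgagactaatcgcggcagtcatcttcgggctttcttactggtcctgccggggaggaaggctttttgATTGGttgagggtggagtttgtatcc
Rad51ap1: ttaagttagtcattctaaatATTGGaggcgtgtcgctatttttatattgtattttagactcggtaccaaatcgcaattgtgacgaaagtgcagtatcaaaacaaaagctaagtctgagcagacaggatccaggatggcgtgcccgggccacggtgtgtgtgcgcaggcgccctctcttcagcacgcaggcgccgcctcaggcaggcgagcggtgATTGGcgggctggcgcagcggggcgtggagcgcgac
Brip1: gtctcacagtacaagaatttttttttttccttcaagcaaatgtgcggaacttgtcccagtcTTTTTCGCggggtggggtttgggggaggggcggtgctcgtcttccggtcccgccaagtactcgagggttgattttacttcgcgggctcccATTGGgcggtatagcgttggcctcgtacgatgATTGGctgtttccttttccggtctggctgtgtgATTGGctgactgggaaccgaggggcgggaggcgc
Ube2t held 3 CCAAT boxes, starting at -124, -80 and -40 from the start in the promoter entry, and Brip1 held 3, at -99, -67 and -34. Chek2 held 2, at -186 and -26, and Rad51ap1 2, at -230 and -36. The TTTNNCGC matches start at -152 in Chek2 and at -189 in Brip1.

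Promoter sequences were found for 27 of the 33 genes; Fancd2, Rad50, Rbbp8, Exo1, Xrcc2 and Nbn have no entry. CCAAT was present on either strand in 18 of the 27 upstream windows, 66.7% (95% Wilson interval 47.8 to 81.4%), against 37.1% of 8389 promoters of tested genes and 34.2% of all 27025 promoters. TTTNNCGC was present in 5 of 27, 18.5% (8.18 to 36.7%), against 7.92% of tested genes and 4.41% of all promoters. The 5 are Bard1, Brca2, Brip1, Chek2 and Fancg. TTTGAA, the letters of a CHR element known from mitotic genes, was in 1 of 27 windows, that of Bard1 (3.70%, interval 0.657 to 18.3%), against 10.6% of tested genes and 16.3% of all promoters. GGGCGG, the Sp1 box, was in 15 of 27, 55.6% (37.3 to 72.4%), against 59.5% of tested genes and 32.7% of all. Matches of these short motifs can overlap each other and are descriptions of letters. Xrcc3 held the most CCAAT matches, 6, and Fancf, which was lower in FSC-A High, held 3, while Fancl, which was higher, held none of the 4 motifs.

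Other genes of the pathway were read from lists of repair and checkpoint genes. Of 33 tested genes of homologous recombination outside the 33, 17 were higher in FSC-A High and 1 was lower (51.5% and 3.03%, against 15.6% and 11.7% of all tested genes), with a median log2 difference of 0.60. Rpa2, a subunit of the protein that coats single-stranded DNA, averaged 191 ± 22.1 RPKM in FSC-A High and 79.4 ± 5.09 RPKM in FSC-A Low (SD, n = 4 and 3; log2 difference 1.25, limma adjusted p = 6.37e-05), and Rad54b, a translocase related to RAD54, averaged 11.4 ± 1.56 RPKM in FSC-A High and 0.926 ± 0.760 RPKM in FSC-A Low. The gene that fell, Mcm9, of a helicase complex that acts in recombination, averaged 5.08 ± 3.19 RPKM in FSC-A High and 19.3 ± 9.88 RPKM in FSC-A Low (log2 difference -1.81, limma adjusted p = 0.0209). Its groups overlapped, at a highest FSC-A High value of 8.49 RPKM and a lowest FSC-A Low value of 8.43 RPKM. Mcm8, of the same complex, was called higher in FSC-A High (log2 difference 1.49, limma adjusted p = 0.00969).

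Of 20 tested genes of the Fanconi and crosslink repair list, 5 were higher and 3 lower, with a median of 0.36. These are 25% and 15%, against 15.6% and 11.7% of all tested genes. Cenps and Cenpx, the histone-fold partners of FANCM that also sit at centromeres, averaged 104.5 ± 13.9 and 142 ± 41.1 RPKM in FSC-A High, against 23.8 ± 6.43 and 37.6 ± 11.7 RPKM in FSC-A Low. Their log2 differences were 2.12 and 1.89, with limma adjusted p values of 1.99e-05 and 2.50e-04. Faap20, a subunit that binds ubiquitin, averaged 151 ± 18.4 RPKM in FSC-A High and 87.2 ± 26.0 RPKM in FSC-A Low. The 3 that fell were Rev1, a scaffold of bypass synthesis (5.75 ± 1.93 RPKM in FSC-A High and 17.7 ± 3.01 RPKM in FSC-A Low), and both parts of the enzyme that takes the ubiquitin off FANCD2. Of these, the protease gene Usp1 averaged 24.8 ± 7.77 RPKM in FSC-A High and 46.5 ± 5.80 RPKM in FSC-A Low (log2 difference -0.92, limma adjusted p = 0.0115), and its cofactor Wdr48 averaged 9.39 ± 1.19 RPKM in FSC-A High and 21.1 ± 7.31 RPKM in FSC-A Low (-1.05, adjusted p = 0.0107).

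Of 20 tested checkpoint genes beside the 4 kinases, 7 were higher and 2 lower, with a median of 0.11. These are 35% and 10%, against 15.6% and 11.7% of all tested genes. H2ax, the histone variant that ATM and ATR mark at breaks, averaged 620.5 ± 41.1 RPKM in FSC-A High and 92.9 ± 4.34 RPKM in FSC-A Low (log2 difference 2.73, limma adjusted p = 2.27e-08). The phosphatase gene Cdc25b averaged 14.1 ± 2.24 RPKM in FSC-A High and 2.95 ± 0.803 RPKM in FSC-A Low, and Tipin, of the fork protection complex, 226 ± 13.9 RPKM in FSC-A High and 126 ± 12.5 RPKM in FSC-A Low. The genes that fell were the kinase gene Wee1 (log2 difference -0.90, adjusted p = 0.0267) and the phosphatase gene Cdc25a (-1.05, adjusted p = 0.0293). Among end joining genes 5 of 15 were higher and 1, the ligase gene Lig3, lower (33.3% and 6.67%; median 0.33); among the 5, Xrcc1, Paxx and Parp2 had the smallest p, with log2 differences of 1.04, 1.15 and 0.75. Among mismatch repair genes 1 of 8 (12.5%), the ligase gene Lig1, was higher (log2 difference 1.54) and none lower (median -0.24). In nucleotide excision repair 4 of 17 (23.5%) were higher and none lower (median 0.10). Among these, Gtf2h5 and Gtf2h2 had log2 differences of 1.02 and 0.86. Over these lists together, 39 of 113 tested genes were higher and 7 lower as deposited (34.5% and 6.19%), beside 1657 and 1245 of all 10619 tested genes. With library totals as the scale 28 were higher and 18 lower, beside 980 and 2285 over all genes. With the length and GC trend subtracted 28 were higher and 2 lower, beside 1026 and 781 over all genes.

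**Figure D4:**
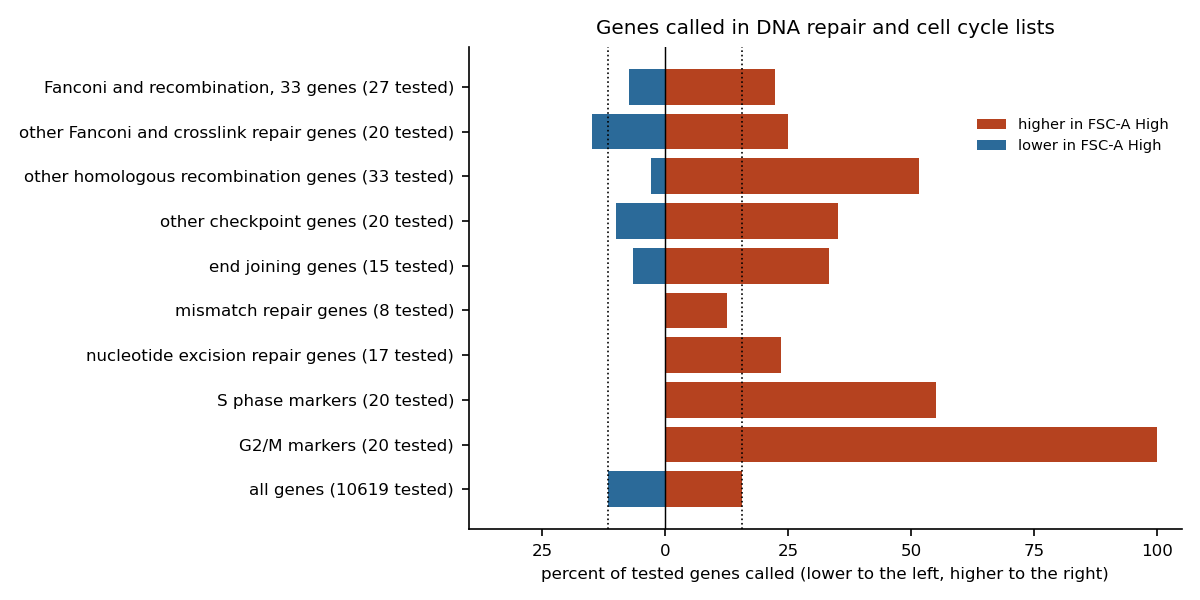
Percent of tested genes called higher (right) or lower (left) in FSC-A High against FSC-A Low, per list, with dotted lines at the shares over all tested genes, 15.6% and 11.7%. The 33 genes lie at 22.2% and 7.41%, the other homologous recombination genes at 51.5% and 3.03%.

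The order of abundance of the 33 genes was similar in the 3 groups. Across the 33 genes, Spearman's rho between mean levels was 0.91 for FSC-A High and FSC-A Low, and 0.84 for FSC-A High and 0.83 for FSC-A Low against the unfractionated libraries, given as CPM (reads scaled to library size) per kilobase of the same transcript (CPM per kb). The points share transcript lengths, and the units of the gated and the unfractionated files differ, so only the order is set side by side. In the unfractionated libraries Ube2t led at 43.6, 41.9, 94.3 and 51.3 CPM per kb, a mean of 57.8 ± 24.7 (SD, n = 4). It was followed by Rad51ap1 (32.4 ± 17.9), Nbn (28.6 ± 8.56), Chek2 (26.1 ± 7.09), Rad50 (23.7 ± 1.76) and Fancl (20.4 ± 10.5). From Rad51ap1 down to Fancl each gene lay within 1 SD of the next, taking the larger SD of each pair. The ID complex genes were low here too, Fanci at 2.42 ± 1.38 and Fancd2 at 1.75 ± 1.38 CPM per kb, and Bard1, Rad51c and Fanca were the lowest, at 0.545 ± 0.645, 0.613 ± 0.749 and 0.685 ± 0.490. Chek1 was ninth in the unfractionated libraries at 12.2 ± 3.57 CPM per kb, while its rank was 22 among the FSC-A High means and 21 among the FSC-A Low means. Fancf ranked 14 in FSC-A High, 2 in FSC-A Low and 14 in the unfractionated libraries.

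Among the unfractionated libraries, whose G2 and mitosis markers summed to between 835 and 3690 CPM, replicate 4 stood apart. The precursor of ribosomal RNA, Rn45s, took 15.2% of its reads, against 3.06% to 5.26% in the other 3 libraries, and it was the lowest library for 19 of the 33 genes. Bard1, Rad51c and Fanca had 0 reads there, which does not show that their RNA was absent from the cells. Fancg, Fancd2 and Brca1 had 1 read each, against 453 to 606, 233 to 506 and 352 to 571 reads in the other libraries. In the same library 6 of the 33 genes were the highest of the 4, among them Rad54l, Rbbp8 and Mre11a, at 2310, 2874 and 1760 reads. Replicate 4 had 11384 genes above 0, against 12909 to 13368 in the other libraries. Over the 3 other libraries Brca1 was at 1.73, 4.08 and 2.37, Fancd2 at 1.65, 1.98 and 3.37, and Fancg at 5.29, 10.3 and 6.69 CPM per kb.

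**Figure D5:**
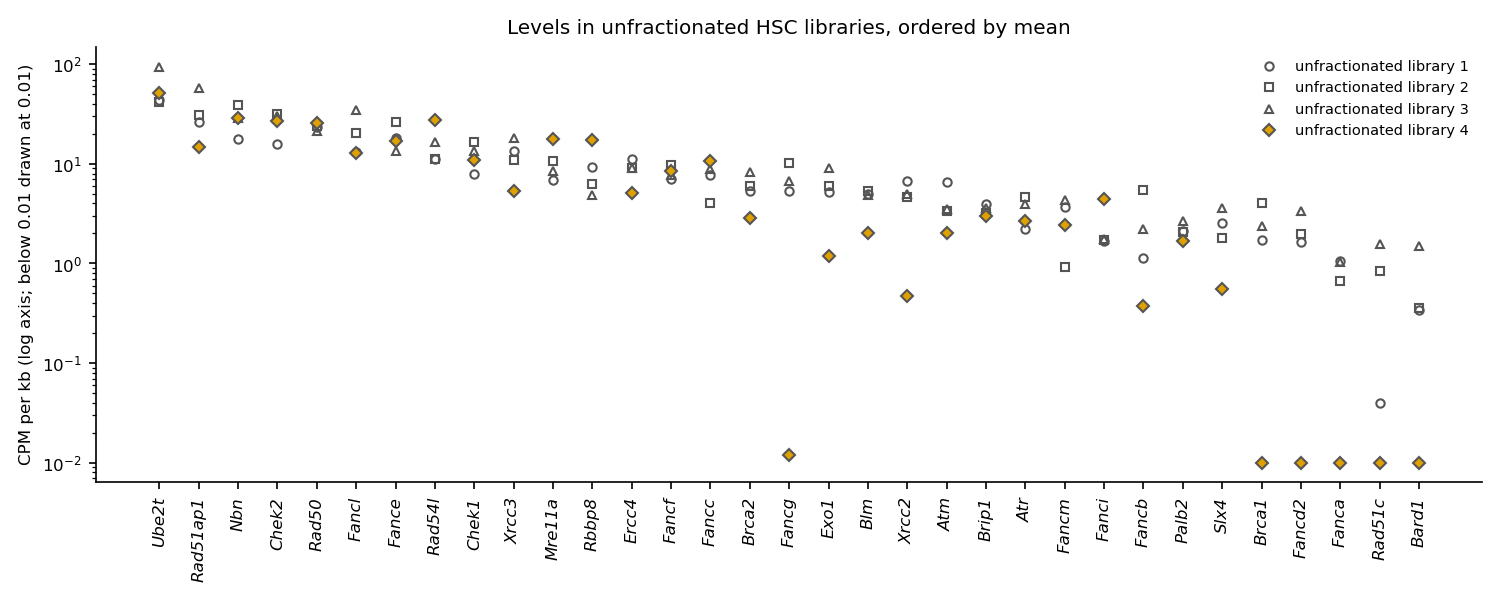
Level of the 33 genes in the 4 unfractionated libraries, in CPM per kb on a log axis, ordered by mean; symbols are libraries, values below 0.01 are drawn at 0.01, and replicate 4 is filled. Ube2t leads at a mean of 57.8 CPM per kb, and replicate 4 lies at the bottom for Brca1, Fancd2, Fancg, Fanca, Rad51c and Bard1.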

How the data were processed

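RNA of 11 HSC libraries was analysed, grouped by their titles. The authors' files for the gated libraries give 1 value per RefSeq transcript, used as deposited and taken as RPKM; no label or header names the unit, it was inferred from the values, and RPKM and FPKM cannot be told apart. In the unfractionated files the deposited signal of a gene becomes whole reads for 100% of values, within 0.01, when divided by the step of its library, as counts divided by a size factor do; these reads were expressed as CPM, and form a single group, so no count test was possible. STAR, DESeq2 and mm10 are named, without versions or roles, in the submitters' processing notes. Depth of the gated libraries was estimated from the step between low values.

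The members and lists were chosen with earlier results of these data known. Of several transcripts, that with the highest mean in the gated libraries stood for its gene. FSC-A High was compared with FSC-A Low by limma 3.58.1 in R 4.3.3 (eBayes with intensity trend) on log2(RPKM + 1), for 10619 genes that reached 1 RPKM in 3 or more libraries, with Benjamini-Hochberg adjustment over all genes. The design had named limma for values that are not counts. Fold changes on this scale understate the change of low genes. Genes named in full were, per role, the called members; of the other lists, up to 3 called genes with the smallest p and those called against the list's median. Transcript lengths and GC content came from GENCODE M21, promoters from RefSeq; 95% Wilson intervals cover counting error only. The fit was tested on simulated data. TMM factors were made with edgeR 4.0.16, and tables and plots with Python 3.11.15, pandas 2.3.3 and matplotlib 3.10.9. Results of some single genes of the lists are not reported here; the counts and sums include them.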

Additional observations from a re-analysis of the deposited data

Results flagged for a closer look

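In groups of 4 libraries a value was marked where its gap to the next value took nearly the whole range of its group. Of 66 such groups 3 were marked, about the 1 in 20 that chance gives. Xrcc3 stood at 25.7 RPKM in FSC-A High replicate 4, against 12.9 to 13.8 RPKM in the other FSC-A High libraries. In unfractionated replicate 4, Fanci stood at 20.8 CPM, against 7.87 to 8.20 CPM in the other libraries, and Blm stood at 9.31 CPM, against 22.1 to 24.4 CPM. Replicate 4 is also the unfractionated library with 15.2% of its reads in Rn45s; the part of that in these values was not tested.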

How the results depend on the processing

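The direction of each called gene held in all alternatives. Of 609 values of single genes, 554 kept direction and side of the threshold, 24 no longer passed, 6 newly passed and 25 changed sign, all in genes without a call. Between 4 and 7 of the genes were called higher. Instead of 2 called lower there were 0 with no filter, 1 with no intensity trend, 1 with the replicate block, 1 with the block and without the length and GC trend, 0 at an adjusted p below 0.01, and 0 to 3 with a library left out. All genes called higher and lower numbered 980 and 2285 when scaled by library totals, 1026 and 781 once the trend over length and GC was taken out, 801 and 583 for that plus the block, and 1064 and 545 at an adjusted p below 0.01. List genes called lower numbered 18, 2 and 2 in the first 3 of these. Library totals gave log2 differences of -0.056 for Fancc and -0.129 for Brca1. Palb2 was at 0.015 with a pseudocount of 0.5, 0.011 with median ratio, 0.032 with upper quartile, 0.041 summed over transcripts, 0.249 without the length and GC trend, 0.241 without the expression level trend and 0.138 with the block and without the length and GC trend. In the same order Xrcc2 was at 0.004 (pseudocount), 0.133, 0.143 and 0.118, and Ercc4 was at 0.125 with the block and the trend removed. With a library left out, Brca1 spanned -0.086 to 0.170, Palb2 -0.365 to 0.481, Xrcc2 -1.025 to 0.415, Blm -0.109 to 0.848 and Mre11a -0.023 to 1.097. The causes were not tested. Whether equal replicate numbers pair the libraries is not stated in the labels. Deviations from the group means correlated at -0.031, 0.059 and 0 for libraries with the same number. Those with different numbers correlated at -0.092 to 0.092. With groups of 4 and 3 libraries these correlations cannot decide whether the numbers pair them. With the replicate block alone, 5 genes were called higher and 1 lower, and 1460 and 971 of all genes. The alternatives TMM, summing over transcripts, quality weights and trend removal came from earlier work that had seen these data, and leaving out Rn45s, which moved the median of the 33 genes in unfractionated libraries to 29.2 CPM, against 27.3 CPM, was chosen after seeing the data.
Depth is an estimate in the gated libraries, and values near 0 RPKM in single libraries, such as Fanca in FSC-A Low replicate 2, rest on few reads.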
